A study of Mus musculus with 6 samples.

Results

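The machinery that copies DNA in S phase was followed through 53 genes, which were taken by symbol from a list covering origin licensing, the MCM helicase, DNA polymerases, clamp loading, nucleotide supply and chromatin assembly. All 53 symbols were found once each among the 54232 genes of the count table. All 53 also passed the filter on low counts, which kept 10067 genes, and their counts summed over the 6 libraries ran from 95 to 4194. The measurements come from leukaemia cells of mice. Eµ-TCL1 mice, in which a transgene under a B-cell enhancer expresses the TCL1 oncogene and causes a leukaemia resembling chronic lymphocytic leukaemia (CLL), served as donors once at least 60% of their blood leukocytes were CD5+ CD45R(low) leukaemia cells. Their splenic mononuclear cells were injected into the peritoneum of wild-type C57BL/6J recipients. From day 5 the recipients received by mouth either 50 mg/kg PF-670462, which inhibits the casein kinase 1 enzymes CK1 delta and CK1 epsilon, in 10% kolliphor in PBS (CK1i, 3 libraries), or that carrier alone (CTRL, 3 libraries). Dosing alternated 5 days of treatment with 2 days of recovery over 8 weeks, so both groups received transferred leukaemia and carrier. Collection was timed by the CTRL mice, when they reached the terminal stage. Libraries were made from leukaemic B cells sorted out of the recipient spleens. The age of the mice and the number of donors are not given in the labels. Nothing there ties each library to a separate mouse, and p-values thus measure the spread between these samples, which may be technical.

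A chromosome is prepared for copying in G1, when the origin recognition complex, CDC6 and CDT1 load rings of MCM2 to MCM7 onto DNA, a step called licensing. In S phase the kinase CDC7 with its subunit DBF4 turns these rings into active helicases by recruiting CDC45 and the GINS complex. Polymerase alpha with primase then starts each strand, the RFC complex loads the PCNA clamp, and polymerases delta and epsilon extend the strands. Many of these genes are driven by E2F transcription factors at the G1 to S transition, and circulating CLL cells rest largely outside the cycle, with division taking place in lymphoid tissue such as the spleen.

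Promoter sequence, which the choice of genes did not use, was searched for 4 motifs. RefSeq promoter windows on GRCm38.p6, covering 250 bases before to 50 bases after a transcription start (300 in all), were available for 43 of the 53 genes (53 windows). An E2F site, searched on both strands as TTTCCCGC, TTTCGCGC, TTTGCCGC or TTTGGCGC, was present for 17 of the 43 genes (39.5%). The same letters were present for 5.1% of the 7651 tested genes with a window and for 2.6% of all 27025 genes of the promoter table. The cell cycle homology region (CHR), searched as TTTGAA or TTCGAA, showed the opposite arrangement. CHR letters were found for 10 of the 43 replication genes (23.3%) but for 15 of 19 genes of a mitosis list (78.9%), while 1 of those 19 mitosis genes (5.3%) held an E2F site. CHR letters were present for 16.7% of tested genes. CCAAT boxes (CCAAT) were found for 62.8% of replication genes, 89.5% of mitosis genes and 43.1% of tested genes, and GC boxes (GGGCGG) for 74.4%, 84.2% and 70.7%. A match is a description of letters, not evidence that a factor binds there, and no statistical comparison of these shares was made. On the gene's own strand alone, 9 of 43 replication genes held an E2F site against 2.8% of tested genes.

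**Figure D1:**
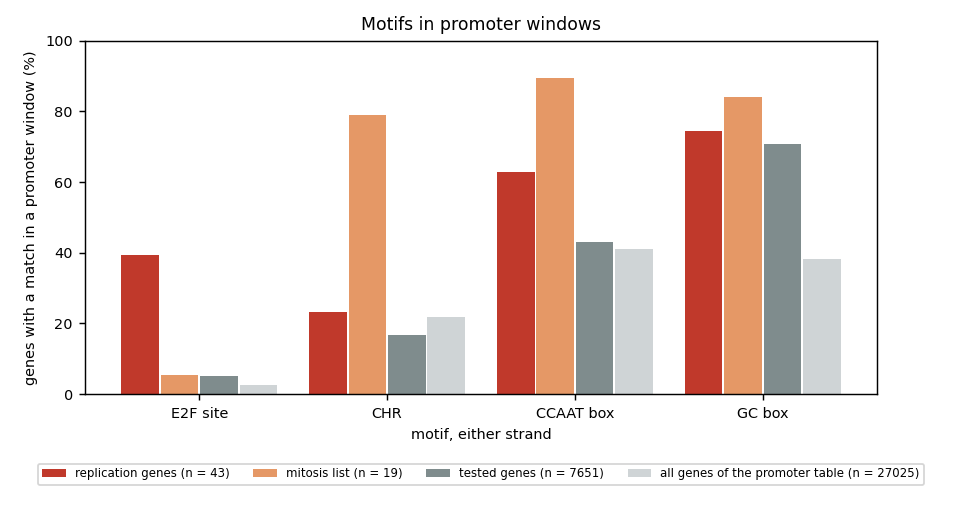
Share of genes (%, vertical axis) with at least 1 match to each motif (horizontal axis, either strand) in a RefSeq promoter window, for the replication genes, the mitosis list, all tested genes and all genes of the table. The E2F bar of the replication genes, at 39.5%, stands above the other 3 E2F bars, and the CHR bar of the mitosis list, at 78.9%, stands above the other 3 CHR bars.

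Of the 17 genes with an E2F match, 10 are shown, namely the 7 licensing genes among them, Pola1, and the genes with the highest and the lowest log2 fold change of the 17, Clspn and Pold3. Dnmt1, Gins3, Lig1, Pold1, Pole2, Rfc3 and Uhrf1 also hold a match and are not printed. Sequences are given on the strand of the gene, 5′ to 3′ from RefSeq on GRCm38.p6, with E2F matches in capitals. The 3 genes shown at length are those whose stretch lies before the GENCODE gene and in no other annotated gene. Mcm5 and Mcm6 each hold a pair of overlapping matches facing opposite ways, and Mcm6 holds a further match nearer the start. The Mcm5 stretch is chr8:75109330-75109389 (+ strand) and ends 180 bases before the gene. The Mcm6 stretches are chr1:128359782-128359841 and chr1:128359719-128359778 (- strand), 118 and 55 bases before the gene. The Pola1 stretch is chrX:93632260-93632319 (- strand), 105 bases before the gene.
Mcm5: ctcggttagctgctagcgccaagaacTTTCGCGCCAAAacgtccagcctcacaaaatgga
Mcm6, distal: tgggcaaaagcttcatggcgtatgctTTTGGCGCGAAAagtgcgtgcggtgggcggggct
Mcm6, proximal: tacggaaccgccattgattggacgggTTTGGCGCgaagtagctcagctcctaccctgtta
Pola1: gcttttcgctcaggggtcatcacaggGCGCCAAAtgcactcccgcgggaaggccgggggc

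In the other genes shown, the stretch overlaps the annotated gene, and only 24 bases around the match are given. Mcm3 and Mcm7 each hold 2 matches in their window, of which 1 is shown. The positions are chr4:126556993-126557016 for Clspn (+), chr4:108579419-108579442 for Orc1 (+), chr11:98908005-98908028 for Cdc6 (+), chr8:122568039-122568062 for Cdt1 (+), chr1:20820278-20820301 for Mcm3 (-), chr5:138171852-138171875 for Mcm7 (-) and chr7:100121470-100121493 for Pold3 (-).
Clspn: gcgtctggGCGCGAAAgctcgaac
Orc1: ggttagtgGCGCGAAAagttttct
Cdc6: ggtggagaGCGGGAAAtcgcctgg
Cdt1: actaccttTTTGGCGCcatggcgc
Mcm3: cttccgtgGCGGGAAAacttggga
Mcm7: tgacgacgTTTCGCGCcaatttcg
Pold3: cgaagctgTTTCCCGCcggcggga

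Some properties of the whole data set bear on these genes. Total counts lay between 2472064 and 3105137 per library, 1 count being worth 0.326 to 0.401 CPM (counts scaled to a common library size by TMM). The quasi-likelihood test of edgeR called 0 of 10067 genes (0%) at an adjusted p under 0.05, the smallest being 0.224. Before adjustment, 272 genes were higher and 201 lower at p under 0.05. DESeq2 called 8 genes and limma-voom 0. CTRL replicate 1 stands apart from the other libraries on the first principal component (28.0% of the variance), at 31.4 against -12.4 to 4.68, and results are therefore also given without it. Markers of the sorted leukaemic B cells were present, all 9 of 9 with counts, at a summed 5867 to 6304 CPM in CK1i and 5905 to 6140 CPM in CTRL. Some defining genes of other cells were near 0. Cd3e, Cd3d and Cd3g of T cells had 0 to 5 counts a library, C1qa, C1qb and C1qc of macrophages 0 to 2, and the erythroid gene Epor 0 in all libraries. Other genes of the same lists had more, with 260 to 381 counts a library for Lck (T cells), 59 to 106 for Cd68 (macrophages) and 7 to 15 for Hbb-bt (erythroid cells).

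Replication genes mostly had higher values under CK1i, by a small amount and with none past the threshold. Of the 53 genes, 49 had a log2 fold change above 0, against 48.8% of all tested genes, and the median was 0.31, against -0.0055 over all tested genes. The median standard error (SE) of a single log2 fold change over the 53 genes was 0.23, and the smallest adjusted p among them was 0.929 (edgeR). Before adjustment, 7 genes (13.2%) were higher at p under 0.05, where 2.70% of all tested genes were higher at that level. These were Rrm1, Gmnn, Mcm4, Mcm6, Prim1, Chaf1a and Clspn. None of the 53 was lower at that level, where 2.00% of all tested genes were. In 6 genes (11.3%) every CK1i library lay above every CTRL library, against 5.22% of tested genes. These were Cdc6, Gmnn, Mcm4, Mcm6, Pold3 and Rrm1. With library totals in place of TMM scaling 2 of the 53 had groups without overlap. The share of all tested genes without overlap under that scaling is not given here, so this count has no background beside it. None of the 53 had all CK1i libraries below all CTRL libraries, where 4.48% of tested genes did. Without CTRL replicate 1, 3 of the 53 were higher at an unadjusted p under 0.05, where 3.07% of all genes tested in that fit were, and 1 was lower. Without that library 7 lay above and 4 below without overlap, the 4 being Fen1, Gins1, Gins4 and Pold2. The shares of all tested genes that were lower or without overlap in that fit are not given here. These counts thus have no background beside them.

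**Figure D2:**
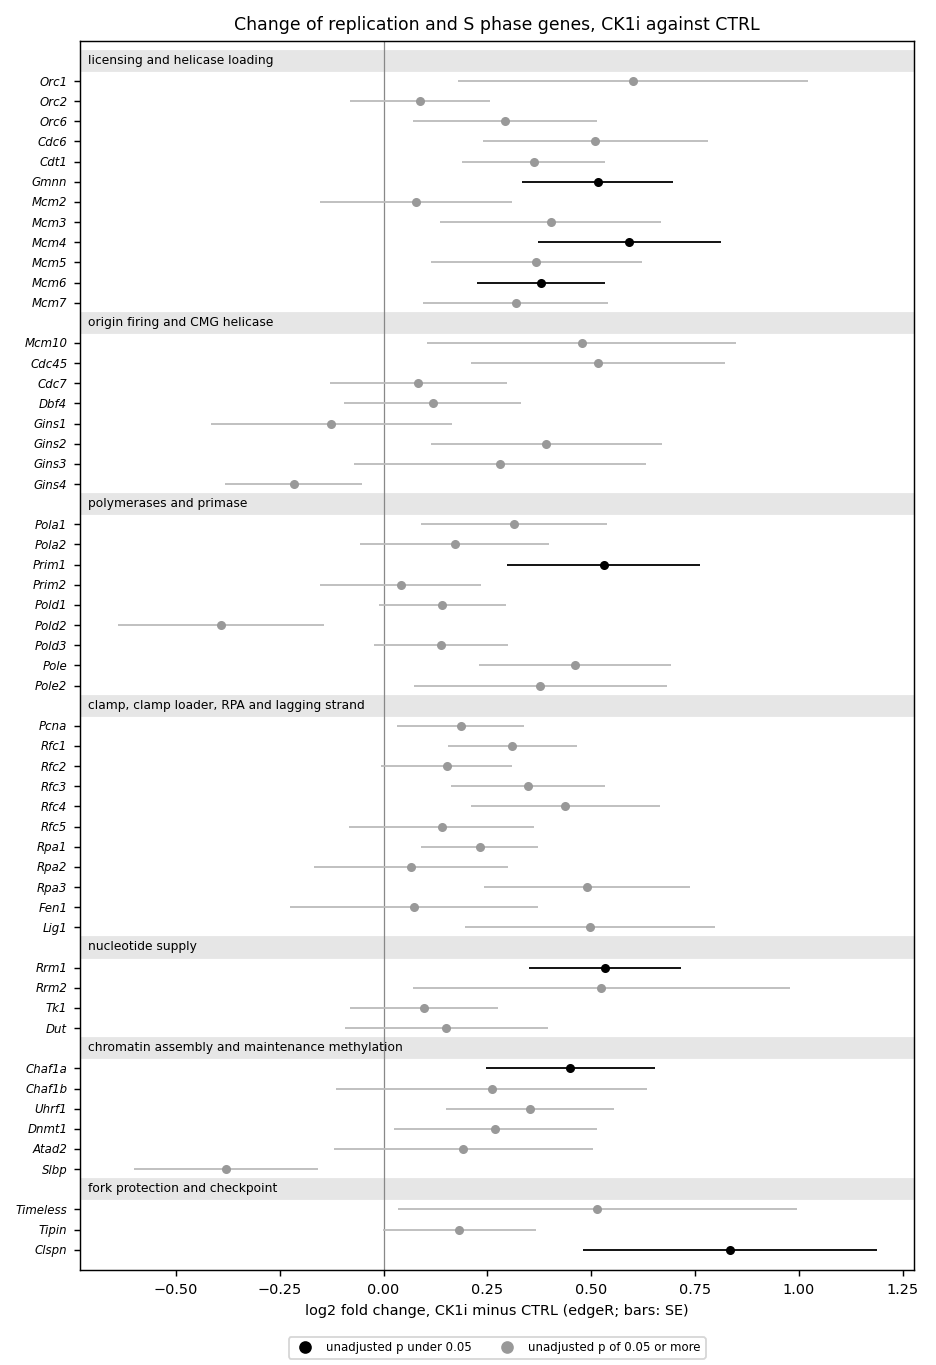
Log2 fold change (CK1i minus CTRL, horizontal axis) of each of the 53 genes (vertical axis, by role), points being edgeR estimates and bars their SE. Black points mark the 7 genes with an unadjusted p under 0.05, and the 4 points left of 0 are Gins1, Gins4, Pold2 and Slbp.

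The size of the difference rests in part on CTRL replicate 1. That library had the lowest value of the 6 for 45 of the 53 genes, and CK1i replicate 2 had the highest for 29. Without CTRL replicate 1, 37 of the 53 genes had higher values in CK1i and the median was 0.11, with 49.8% of all tested genes higher and a median over all of -0.0015. Without CK1i replicate 2, 44 were higher and the median was 0.18. The mean log2 CPM over the 53 genes, here called the replication score, was 5.71, 5.95 and 5.64 in replicates 1, 2 and 3 of CK1i. In the CTRL replicates it was 5.04, 5.75 and 5.61, with group means of 5.77 ± 0.17 and 5.47 ± 0.38 (SD, n = 3). The groups overlapped, since CTRL replicate 2 lay above CK1i replicates 1 and 3. In these bulk samples a smaller share of cells in S phase and less of each transcript per cell cannot be told apart.

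**Figure D3:**
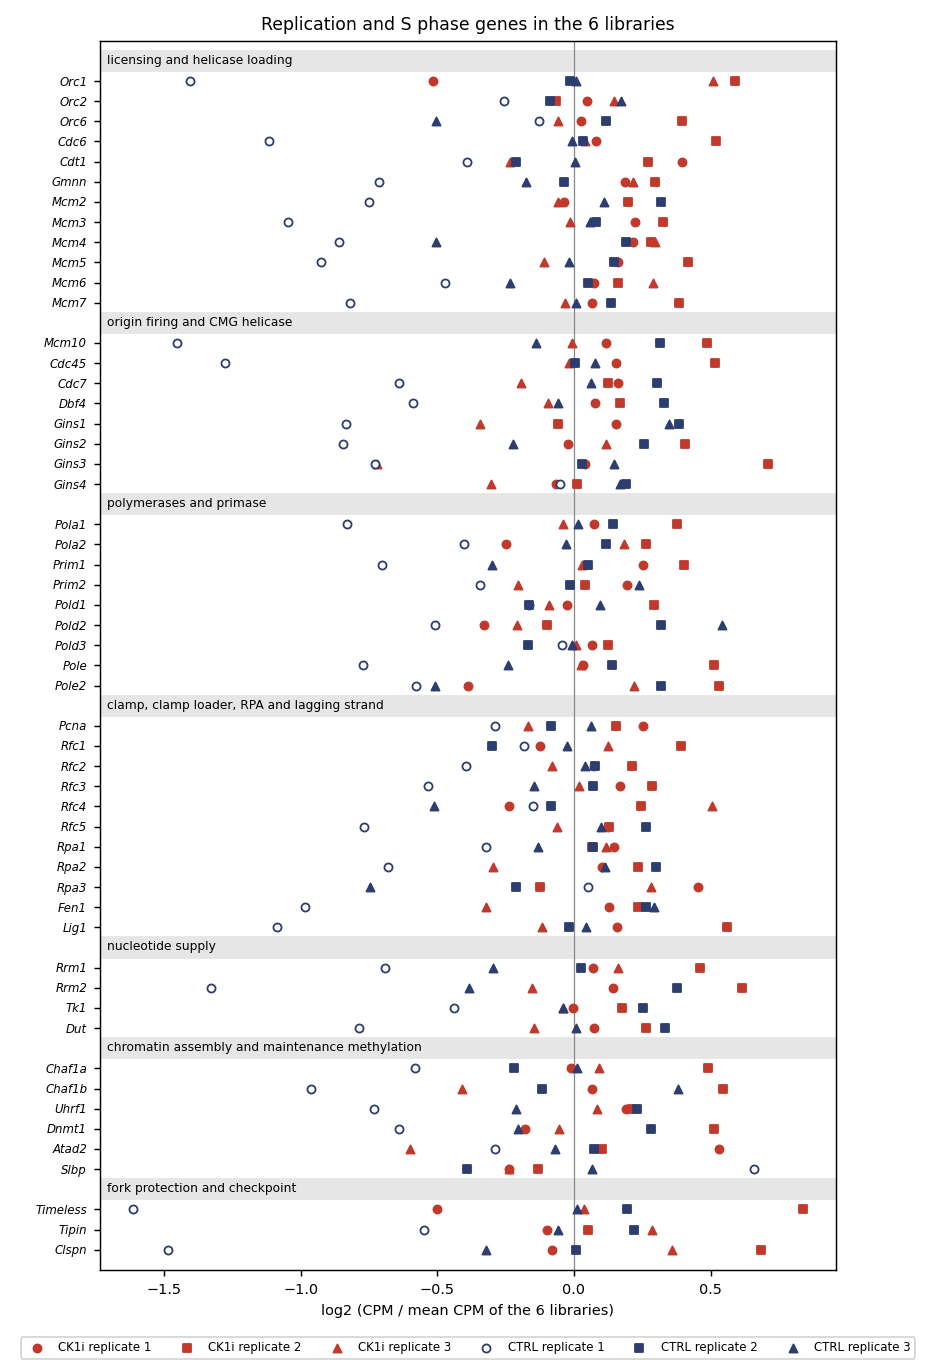
CPM of each gene in each library relative to the mean of the 6 libraries (log2, horizontal axis), for the 53 genes by role (vertical axis). Open circles, CTRL replicate 1, lie farthest left for 45 of the 53 genes, and for Slbp this library lies farthest right.

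Licensing genes, 12 in number, all had higher values in CK1i, with a median log2 fold change of 0.37 (0.24 without CTRL replicate 1). Gmnn encodes geminin, the protein that binds CDT1 and blocks a further round of licensing within the same cycle. It had 55.0, 59.4 and 56.1 CPM in CK1i replicates 1, 2 and 3, against 29.5, 47.1 and 42.7 in the CTRL replicates in the same order. All CK1i values lay above all CTRL values, with a log2 fold change of 0.52 ± 0.18 (SE), an unadjusted p of 0.0129 and an adjusted p of 0.929 (edgeR), and 0.34 without CTRL replicate 1. Its target Cdt1 had 197, 181 and 128 CPM in CK1i and 114, 129 and 150.2 CPM in CTRL. CK1i replicate 3 lay within the CTRL range, and the log2 fold change was 0.36 ± 0.17. Cdc6, the ATPase that works beside the origin recognition complex, had 27.6, 37.5 and 26.9 CPM in CK1i and 12.1, 26.8 and 26.04 CPM in CTRL. Its groups did not overlap, but CK1i replicates 1 and 3 exceeded CTRL replicates 2 and 3 by little, and the log2 fold change of 0.51 ± 0.27 became 0.22 without CTRL replicate 1.

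The 6 subunits of the MCM2 to MCM7 ring, which act as 1 complex, had log2 fold changes from 0.079 to 0.59, and differences among the subunits were not tested. Mcm4 had 160.2, 168 and 169 CPM in CK1i and 76.0, 157 and 97.2 CPM in CTRL. The 3 CK1i libraries lay close together and above every CTRL library, CTRL replicate 2 coming near, and the log2 fold change was 0.59 ± 0.22 (SE; edgeR adjusted p = 0.977). Mcm6 had 235, 249.9 and 274 CPM in CK1i and 162, 232 and 190.0 CPM in CTRL, again without overlap (log2 fold change 0.38 ± 0.15). Without CTRL replicate 1 these were 0.38 for Mcm4 and 0.26 for Mcm6. At the other end, Mcm2 had 146, 172 and 144 CPM in CK1i and 89.1, 187 and 162 CPM in CTRL. Its highest library was CTRL replicate 2, and its log2 fold change of 0.079 ± 0.23 turned to -0.18 without CTRL replicate 1.

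Mcm3 had 221, 237 and 187 CPM in CK1i and 91.6, 200.0 and 197 CPM in CTRL, with overlap. Mcm5 had 252, 301 and 209 CPM in CK1i and 119, 249.5 and 223 CPM in CTRL. For Mcm7 the values were 227, 282 and 212 CPM in CK1i and 122.8, 238 and 218 CPM in CTRL. In these 3 subunits CTRL replicates 2 and 3 fell among the CK1i libraries and CTRL replicate 1 lay far below. Their log2 fold changes were 0.40 ± 0.27, 0.37 ± 0.25 and 0.32 ± 0.22 with all libraries and 0.11, 0.10 and 0.074 without CTRL replicate 1. Of the origin recognition complex, Orc1 had 0.60 ± 0.42, the highest value in the licensing group, on 6 to 26 counts a library (0.26 without CTRL replicate 1), and Orc2 and Orc6 had 0.088 ± 0.17 and 0.29 ± 0.22.

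Among the 8 genes of origin firing, 6 had higher values, and the median log2 fold change of 0.20 became -0.018 without CTRL replicate 1. Cdc45, which binds the MCM ring to form the active helicase, had 41.1, 52.8 and 36.5 CPM in CK1i and 15.3, 37.1 and 39.1 CPM in CTRL. CTRL replicate 1 was again the low library, and the log2 fold change of 0.52 ± 0.31 became 0.19 without it. Mcm10, a further factor of helicase activation, went from 0.48 ± 0.37 to 0.12 in the same way. The kinase Cdc7 and its activator Dbf4 had log2 fold changes of 0.083 ± 0.21 and 0.12 ± 0.21. The 4 GINS subunits, which form 1 complex, had values of both signs. Gins1 had 20.4, 17.6 and 14.4 CPM in CK1i and 10.3, 23.9 and 23.4 CPM in CTRL, with CTRL replicates 2 and 3 the highest of the 6 (log2 fold change -0.13 ± 0.29). Gins4 had 41.1, 43.4 and 34.9 CPM in CK1i and 41.5, 49.1 and 48.4 CPM in CTRL, with CK1i replicate 2 within the range of CTRL and the other CK1i libraries below it (log2 fold change -0.22 ± 0.16). Gins2 and Gins3 had 0.39 ± 0.28 and 0.28 ± 0.35, and none of the 4 passed the threshold.

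For polymerases and primase, 8 of 9 genes had higher values, with a median log2 fold change of 0.17 (0.093 without CTRL replicate 1). Prim1, the catalytic subunit of primase, had 22.1, 24.5 and 18.9 CPM in CK1i and 11.4, 19.2 and 15.02 CPM in CTRL. CK1i replicate 3 was just below CTRL replicate 2, and the log2 fold change was 0.53 ± 0.23 (SE; edgeR adjusted p = 0.999). Its partner Prim2 had 0.041 ± 0.19. Pole, which encodes the catalytic subunit of the leading strand polymerase epsilon, had 32.2, 45.0 and 32.1 CPM in CK1i and 18.5, 34.7 and 26.7 CPM in CTRL. CTRL replicate 2 exceeded CK1i replicates 1 and 3, and the log2 fold change of 0.46 ± 0.23 was 0.25 without CTRL replicate 1. Pold2, an accessory subunit of polymerase delta, had the lowest log2 fold change of all 53 genes, -0.39 ± 0.25 (edgeR adjusted p = 0.999). It had 18.1, 21.2 and 19.6 CPM in CK1i and 16.0, 28.3 and 33.0 CPM in CTRL. The CK1i libraries lay between CTRL replicate 1 and the other CTRL libraries, and without CTRL replicate 1 the value was -0.65. The other polymerase genes had log2 fold changes of 0.32 ± 0.22 for Pola1, 0.17 ± 0.23 for Pola2, 0.14 ± 0.15 for Pold1, 0.14 ± 0.16 for Pold3 and 0.38 ± 0.30 for Pole2.

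Clamp, clamp loader, single-strand binding and lagging strand genes had higher values in 11 of 11 cases, with a median log2 fold change of 0.23 (0.14 without CTRL replicate 1). Pcna, the sliding clamp, had 211, 197 and 158 CPM in CK1i and 145, 167 and 185 CPM in CTRL. These groups overlapped, with CK1i replicate 3 below CTRL replicates 2 and 3, and the log2 fold change of 0.19 ± 0.15 was 0.096 without CTRL replicate 1. Rfc1, the large subunit of the clamp loader, had 121, 173 and 144 CPM in CK1i and 116, 107 and 129.5 CPM in CTRL. CTRL replicate 1 was not the low library for this gene, and its log2 fold change of 0.31 ± 0.16 was 0.30 without that library. Lig1, the ligase that seals lagging strand fragments, had 256, 339 and 212 CPM in CK1i and 108, 227 and 237 CPM in CTRL. CTRL replicate 1 was low and CK1i replicate 2 high, the other 4 libraries lying within 212 to 256 CPM. The log2 fold change of 0.50 ± 0.30 was 0.21 without CTRL replicate 1. Of the remaining genes, Rpa3, a subunit of the single-strand binding protein RPA, had 0.49 ± 0.25, and Fen1, the flap nuclease of the lagging strand, 0.073 ± 0.30. Without CTRL replicate 1 these 2 moved in opposite ways, to 0.69 and -0.24. Rfc2 to Rfc5 had 0.15 ± 0.16, 0.35 ± 0.18, 0.44 ± 0.23 and 0.14 ± 0.22, and Rpa1 and Rpa2 0.23 ± 0.14 and 0.066 ± 0.23.

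Genes of deoxynucleotide supply had higher values in 4 of 4 cases, with a median log2 fold change of 0.34 (0.063 without CTRL replicate 1). Rrm1, the large subunit of ribonucleotide reductase, had the smallest p of the 53 genes. It had 84.2, 111 and 89.8 CPM in CK1i and 49.7, 81.8 and 65.4 CPM in CTRL. The CK1i libraries all lay above the CTRL libraries, with CTRL replicate 2 close below, and the log2 fold change was 0.53 ± 0.18 (SE; edgeR adjusted p = 0.929), or 0.37 without CTRL replicate 1. Rrm2, the small subunit, whose level sets the enzyme's activity in S phase, had 142, 196 and 116 CPM in CK1i and 51.1, 167 and 98.5 CPM in CTRL. Its log2 fold change was similar, 0.52 ± 0.45, but its spread within each group was wide, CTRL replicate 2 exceeded CK1i replicates 1 and 3, and it was 0.19 without CTRL replicate 1. Tk1, the S phase thymidine kinase, had 60.5, 68.5 and 59.0 CPM in CK1i and 44.7, 72.2 and 59.1 CPM in CTRL, and Dut, which removes dUTP, had a log2 fold change of 0.15 ± 0.24. The highest library for both was CTRL replicate 2, and without CTRL replicate 1 they had -0.066 and -0.11.

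Genes of chromatin assembly and of DNA methylation upkeep gave 5 higher and 1 lower value, with a median log2 fold change of 0.26 (0.085 without CTRL replicate 1). Chaf1a, the large subunit of the histone chaperone CAF-1, had 33.2, 47.0 and 35.7 CPM in CK1i and 22.4, 28.7 and 33.7 CPM in CTRL. CTRL replicate 3 lay just above CK1i replicate 1, and the log2 fold change was 0.45 ± 0.20 (SE; edgeR adjusted p = 0.999). Uhrf1, which brings DNMT1 to newly copied DNA, had 74.7, 75.7 and 69.4 CPM in CK1i and 39.4, 76.6 and 56.4 CPM in CTRL. Dnmt1, the maintenance methyltransferase, had 61.2, 98.8 and 66.6 CPM in CK1i and 44.4, 84.2 and 60.1 CPM in CTRL. Both genes overlapped between the groups through CTRL replicate 2, with log2 fold changes of 0.35 ± 0.20 and 0.27 ± 0.24, or 0.14 and 0.069 without CTRL replicate 1. Chaf1b and Atad2 had 0.26 ± 0.37 and 0.19 ± 0.31 at levels of 3.55 to 10.1 and 6.02 to 13.2 CPM.

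Slbp differed from most of the genes in its order of libraries. It encodes the stem-loop binding protein that processes histone messages in S phase, and much of its known control acts on the protein. Its values were 45.7, 49.3 and 45.7 CPM in CK1i and 85.2, 41.1 and 56.4 CPM in CTRL. CTRL replicate 1, the lowest library for most replication genes, was the highest for Slbp, and the CK1i libraries lay within the range of the CTRL libraries. The log2 fold change of -0.38 ± 0.22 was -0.063 without CTRL replicate 1. Across the 6 libraries the log2 CPM of Slbp had a Pearson correlation of -0.878 with the mean of the other 52 genes, while the median over the 53 genes was 0.879 and 34 of the 53 were at 0.8 or above. These correlations describe 6 libraries that share CTRL replicate 1 as an extreme point. Without it, over 5 libraries, the median was 0.585, 17 genes were at 0.8 or above, and Slbp was at -0.208. Over those 5 libraries 6 of the 53 genes were below 0, where 2 were with all libraries. Orc2 at -0.823 and Pold2 at -0.32 were then lower than Slbp.

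Of the 53 genes, Timeless and Clspn, both of fork protection, had the widest ranges over the libraries. The 3 genes of that role had a median log2 fold change of 0.51 (0.13 without CTRL replicate 1). Clspn encodes claspin, the adaptor that links stalled forks to the checkpoint kinase CHK1, and had 47.0, 79.9 and 63.8 CPM in CK1i and 17.8, 49.9 and 39.7 CPM in CTRL. The highest CTRL library lay between CK1i replicates 1 and 3, and the log2 fold change of 0.83 ± 0.35, or 1.78-fold, was the largest of the 53 (SE; edgeR adjusted p = 0.999). It was 0.51 without CTRL replicate 1. Timeless had 13.8, 34.9 and 20.1 CPM in CK1i and 6.39, 22.4 and 19.7 CPM in CTRL, a span of 2.33 in log2 CPM (prior count of 2) over the 6 libraries. It encodes a fork protein that pairs with Tipin. CK1i replicate 1 lay below CTRL replicates 2 and 3, CTRL replicate 2 also exceeded CK1i replicate 3, and the log2 fold change of 0.52 ± 0.48 became 0.13 without CTRL replicate 1 and 0.063 without CK1i replicate 2. Its partner Tipin had 118, 130.5 and 154 CPM in CK1i and 86.3, 147 and 121 CPM in CTRL. Tipin overlapped between the groups and had a log2 fold change of 0.18 ± 0.18, or -0.003 without CTRL replicate 1.

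**Figure D4:**
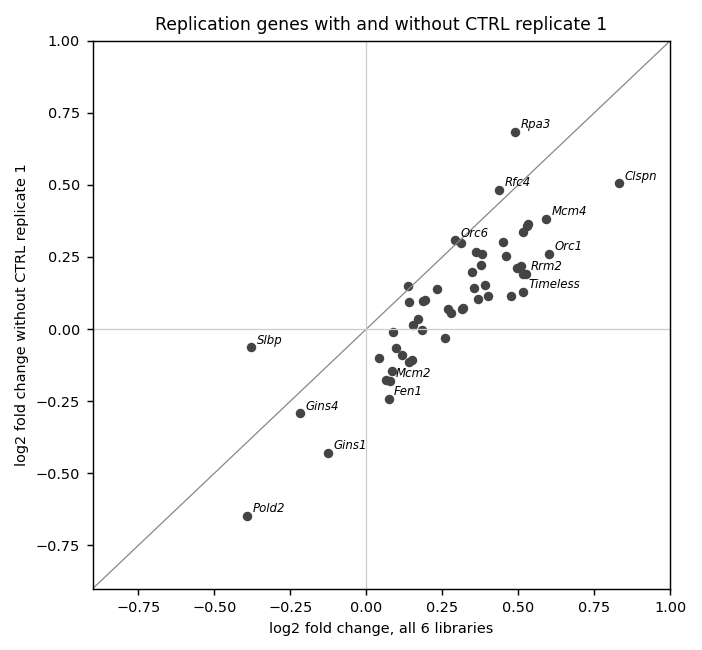
Log2 fold change (CK1i minus CTRL) of each of the 53 genes with all 6 libraries (horizontal axis) and without CTRL replicate 1 (vertical axis), the diagonal marking equal values. Most points lie below the diagonal, the median being 0.31 with all libraries and 0.11 without that one, while Slbp, Rpa3, Rfc4, Orc6 and Pold3 lie above it and Pold2 lies lowest at -0.65.

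The 4 motifs can be set beside these log2 fold changes. The 17 genes with an E2F match had log2 fold changes of 0.14 to 0.83, with a median of 0.36. The 26 genes with a window but no match ran from -0.39 to 0.53, with a median of 0.21, and Pold2 and Slbp were among them. The other motifs also went with different medians. The median was 0.35 for the 27 genes with a CCAAT box and 0.16 for the 16 without, 0.19 for the 10 genes with CHR letters and 0.36 for the 33 without, and 0.30 for the 32 genes with a GC box and 0.37 for the 11 without. None of these differences was tested, and all rest on the fit that includes CTRL replicate 1. No window was available for 10 genes, among them Gmnn and Mcm4 with positive values and Gins1 and Gins4 with negative values.

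Other genes of DNA replication, from a list that excludes the 53, mostly had the same direction. Of 34 tested genes out of 35 listed, 29 had higher values (48.8% of all tested genes did), 2 of them at an unadjusted p under 0.05 (2.70% of all tested genes), and the median log2 fold change was 0.20 (0.083 without CTRL replicate 1). The smallest p values were those of Chtf18, of an alternative clamp loader, with 0.90 ± 0.32 (SE; edgeR adjusted p = 0.929), of Pclaf, a PCNA-binding protein, with 0.70 ± 0.29, and of Ticrr, a firing factor, with 0.52 ± 0.27. The lower values were those of Orc3, Orc4, Orc5, Donson and Asf1a, at -0.12 ± 0.16, -0.23 ± 0.17, -0.042 ± 0.16, -0.035 ± 0.17 and -0.022 ± 0.18. In 3 of the 34 every CK1i library lay above every CTRL library (5.22% of all tested genes), and in 0 below (4.48%). Genes of S phase entry and checkpoint had 14 of 18 tested members higher and 4 lower, 5 of the higher ones at an unadjusted p under 0.05 (2.70% of all tested genes), and a median of 0.36 (0.17 without CTRL replicate 1). The smallest p values were those of Fbxo5, an inhibitor of the anaphase-promoting complex, with 0.77 ± 0.27, Ccna2, the cyclin of S phase and G2, with 0.85 ± 0.29, and Dtl, which directs CDT1 to degradation, with 0.39 ± 0.17. The 4 lower genes were Atrip, Ddb1, Cdk2 and Atr, at -0.24 ± 0.20, -0.070 ± 0.15, -0.011 ± 0.15 and -0.008 ± 0.20. In 3 genes of the S phase entry and checkpoint list every CK1i library lay above every CTRL library (5.22% of all tested genes). Every CK1i library lay below every CTRL library (4.48% of all tested genes) in 1, Atrip, the partner of the checkpoint kinase ATR. Other genes of nucleotide synthesis showed no common direction, 8 of 16 being higher with a median of -0.0090. Tyms, the thymidylate synthase, and Paics, an enzyme of purine synthesis, had the smallest p of that list, with 0.46 ± 0.22 and 0.32 ± 0.16. No gene of these lists passed the adjusted threshold.

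The genes of mitosis, set beside those of replication in the same libraries, had larger log2 fold changes. All 21 tested of 22 listed mitosis genes had higher values, with a median log2 fold change of 0.87, or 0.64 without CTRL replicate 1. In 17 of the 21 every CK1i library lay above every CTRL library (5.22% of all tested genes), and 19 were higher at an unadjusted p under 0.05 (2.70% of all tested genes), with none past the adjusted threshold. Kif20a, a kinesin of cytokinesis, had 60.5, 80.9 and 65.8 CPM in CK1i and 31.2, 43.5 and 39.1 CPM in CTRL, without overlap (log2 fold change 0.87 ± 0.18; edgeR adjusted p = 0.393). Ube2c, an enzyme of the anaphase-promoting complex pathway, and Nusap1, a spindle protein, had 1.44 ± 0.29 and 1.10 ± 0.23. The mean log2 CPM over the mitosis genes was 6.02, 6.62 and 6.10 in the CK1i libraries and 4.94, 5.72 and 5.52 in the CTRL libraries, again without overlap. The mitosis score minus the replication score of the same library was 0.31, 0.66 and 0.46 in CK1i and -0.091, -0.035 and -0.089 in CTRL. CTRL replicate 1 was low for both kinds of gene, and its difference was like that of the other CTRL libraries. The difference was 0.48 ± 0.18 in CK1i and -0.071 ± 0.032 in CTRL (SD, n = 3). Since both lists were chosen with earlier results known, no test of this difference is given.

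**Figure D5:**
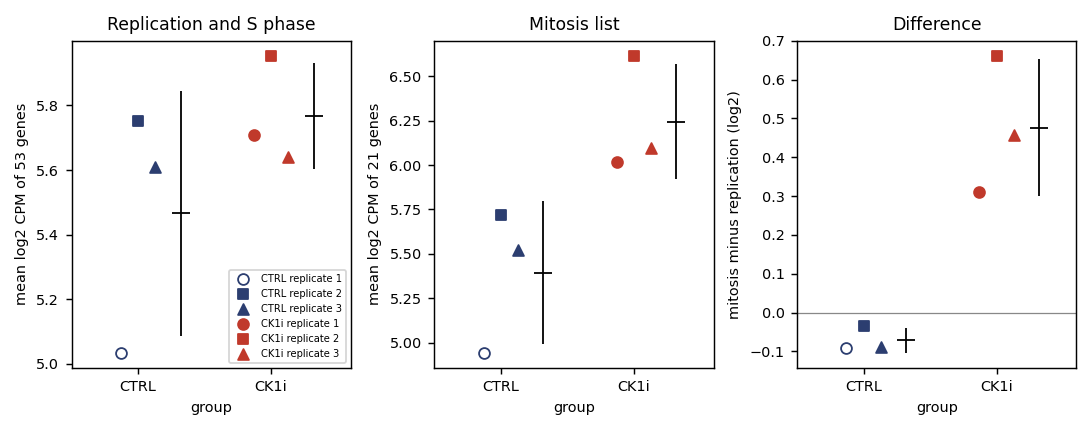
Mean log2 CPM of the 53 replication genes and of the 21 tested mitosis genes, and their difference (vertical axes, log2), in each library by group (horizontal axis), with the group mean and SD as a bar. The replication scores overlap between the groups, while the differences lie at 0.31 to 0.66 in CK1i and at -0.091 to -0.035 in CTRL.

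Marker sums of other cells were set beside these values. The germinal centre list (5 of 6 genes with counts, Gcsam at 0) summed to 27.4 to 30.9 CPM in CK1i and 19.96 to 20.59 CPM in CTRL. The monocyte and macrophage list (7 of 8 with counts, Fcgr1 at 0, C1qa, C1qb and C1qc at 0 to 2 counts) summed to 33.9 to 40.1 and 24.1 to 27.9 CPM, most of it from Cd68, with 81 to 106 counts in CK1i and 59 to 71 in CTRL. NK cell genes (4 of 5, Ncr1 at 0) summed to 0.802 to 1.31 and 0.334 to 0.798 CPM, which rests on 1 to 4 counts a library. The germinal centre sum and the monocyte and macrophage sum were higher in every CK1i library than in every CTRL library, and their part in the results was not tested. T-cell genes (7 of 8 listed) gave 117 to 159 and 105 to 122 CPM, mostly from Lck, and plasma cell genes (5 of 5) 578 to 1502 and 1052 to 1736 CPM. The lowest plasma cell sum was in CK1i replicate 2, the library with the highest replication score. Dendritic cell genes (6 of 6) summed to 20.4 to 24.5 and 18.5 to 39.4 CPM, mostly from Bst2. Stromal and endothelial genes (6 of 6) summed to 163 to 179 and 177 to 191 CPM, mostly from Pecam1, which had 429 to 521 counts a library. Erythroid genes (5 of 8 listed) summed to 3.21 to 5.59 and 3.91 to 5.68 CPM, mostly from Hbb-bt. Neutrophil genes (3 of 7) summed to 3.62 CPM in CK1i replicate 1 and to 0.401 CPM or less in the other libraries.

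Counts of some of these genes are uncertain because their exons overlap another gene. This holds for 18 of the 53, and in 13 a partner on the opposite strand had at least 10 counts. The partner had more counts than the replication gene for Orc6 (Vps35, 2895 against 361), Gins2 (Gse1, 2016 against 237), Fen1 (Tmem258, 3458 against 538), Rfc4 (Eif4a2, 2215 against 383), Rfc2 (Lat2, 4119 against 1729), Cdc45 (Ufd1, 1223 against 631), Rfc5 (Wsb2, 1197 against 828) and Chaf1a (Ubxn6, 672 against 570). Partners of Orc2, Mcm7, Lig1, Tk1 and Timeless had fewer counts than the gene. No source used here gives the strand setting of the counting, and without it reads of the 2 partners cannot be told apart.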

How the data were processed

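RNA of sorted splenic leukaemia cells was made into 3' end libraries with unique molecular identifiers (QuantSeq forward kit) and read as 75-base single reads, per the labels' protocols. The authors deposited raw counts of reads for each gene as whole numbers, without normalization, for 54232 genes, and 0 rows name no gene. The submitters' processing notes list STAR 2.7.3a, UMI-tools 1.1.1 and featureCounts 1.6.3 among their tools, with the build GRCm38.p6 and no role or order. The strand setting and whether identifiers were collapsed are not given in the sources used here. A 3' end count does not scale with transcript length, and levels are not compared between genes.

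These counts were fitted with edgeR 4.0.16 (R 4.3.3), using filterByExpr with a minimum count of 10 and a minimum total of 15, TMM scaling, and the robust quasi-likelihood F test of CK1i against CTRL over all tested genes, two-sided, with Benjamini-Hochberg adjustment and a threshold of 0.05. The SE is the log2 fold change divided by the root of F. Log2 CPM uses a prior count of 2. The procedure was run on simulated data whose changes were larger than that of any replication gene here, so that run does not speak to changes of their size. Alternatives were DESeq2 1.42.0, limma-voom (limma 3.58.1), other scalings and filters, and each library left out.

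The genes and lists were chosen with earlier results of these data known. Values per library are given for fixed genes of each role, the 10 of the 53 with the smallest p, the genes with a negative log2 fold change and, after its values were seen, Cdc45. From other lists, genes past the threshold were to be named, otherwise the 3 with the smallest p (1 such gene is not reported here); the lower genes Orc3, Orc4, Orc5, Donson, Asf1a, Atrip, Ddb1, Cdk2 and Atr were named after their values were seen, as were the remaining genes named in short. Gene positions and overlaps are from GENCODE M21 (GRCm38), which held all 53 genes. All 6 libraries carry the same batch label.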

Additional observations from a re-analysis of the deposited data

How the results depend on the processing

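No paired analysis was possible because the labels give no number that CK1i and CTRL libraries share. No replication gene passed the adjusted threshold under any of the 12 alternative fits. Over all tested genes, 3 were called with no filter, 8 with DESeq2, and 0 to 1 with a library left out. With a library left out, replication genes with higher values numbered 37 to 50 and their median log2 fold change was 0.11 to 0.44. Those with an unadjusted p under 0.05 numbered 3 (without CK1i replicate 2) to 16 (without CTRL replicate 2). Of these, 3 and 15 were higher, where 1.73% and 3.61% of all genes tested in the same fits were higher. Those whose groups did not overlap numbered 9 to 19 (without the same libraries), smaller groups separating more easily. The share of all tested genes without overlap in these fits is not given here. With library totals alone 2 had groups without overlap, and the share of all tested genes under that scaling is not given either. Scores per library moved by less than the spread between replicates with a prior count of 0.5 and with DESeq2 size factors. On the gene's strand alone, matches were found for 9 genes (E2F), 6 (CHR) and 15 (CCAAT).

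The sign of 15 genes turned when a library was left out. With CTRL replicate 1 left out, 12 turned, and this gave the lowest value of each. Their lowest and highest log2 fold changes with a library left out were -0.011 and 0.21 for Orc2, -0.18 and 0.29 for Mcm2, -0.15 and 0.28 for Cdc7, -0.090 and 0.35 for Dbf4, -0.10 and 0.19 for Prim2, and -0.12 and 0.33 for Rfc5. They were -0.18 and 0.26 for Rpa2, -0.24 and 0.28 for Fen1, -0.066 and 0.26 for Tk1, -0.11 and 0.40 for Dut, -0.032 and 0.63 for Chaf1b, and -0.003 and 0.36 for Tipin. Gins3 ranged from -0.14 (without CK1i replicate 2) to 0.54, Atad2 from -0.095 (without CK1i replicate 1) to 0.42, and Gins1 from -0.43 to 0.050 (without CTRL replicate 3). Beyond the library named, the cause was not tested. Genes of few counts, such as Orc1 with 95 in all, limit what can be called.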

Other observations

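The 10 tested genes outside the list whose log2 CPM followed the mean of the 53 replication genes most closely over the 6 libraries were Ssrp1 (r = 0.996), Txn1 (0.993), Tcf19 (0.984), Slc10a7 (0.983), Cenpm (0.983), Erlec1 (0.981), Cbx5 (0.981), Brip1 (0.980), Arid3a (0.980) and Ndc80 (0.978). Ssrp1 encodes a subunit of the histone chaperone FACT, Brip1 a helicase of DNA repair, Cenpm and Ndc80 centromere and kinetochore proteins, and Cbx5 the heterochromatin protein HP1 alpha. These were picked as the highest of all tested genes, the points share CTRL replicate 1 as an extreme, and the values are a description. Their log2 fold changes (CK1i minus CTRL) ran from 0.12 for Erlec1 to 0.74 for Tcf19.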
